A study of Homo sapiens with 10 samples.

Results

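Aminoacyl-tRNA synthetases attach each amino acid to its tRNA, and this account follows the genes of these enzymes and of their scaffold proteins in 5 groups of TREx293 cells. The 40 members were taken by symbol from a table of 58216 genes, using the older symbols of the table (AARS for the gene now named AARS1, for example). They comprise 19 cytosolic enzymes, 2 genes whose products serve both the cytosol and mitochondria (GARS and KARS), 16 mitochondrial enzymes and 3 scaffold proteins (AIMP1, AIMP2 and EEF1E1). All 40 passed the filter on low counts and are among the 18127 tested genes.

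The cytosol and the mitochondrion charge separate sets of tRNAs, and most amino acids therefore have a cytosolic enzyme and a separate nuclear-encoded mitochondrial enzyme whose gene name ends in 2. Several cytosolic enzymes are held together in a multi-synthetase complex by the 3 scaffold proteins. Genes of many cytosolic enzymes are known targets of ATF4, the transcription factor that the integrated stress response induces when amino acids are short or unfolded proteins accumulate, and that binds the CEBP-ATF response element. These statements are background and not results of these data.

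TREx293 is a human embryonic kidney (HEK293) line carrying a tetracycline repressor and a recombination site for a single inserted construct. Each group had 2 libraries: the control line (CTRL, genotype labelled WT), and lines in which a construct for MN1, for BEND2 or for a fusion protein, MN1-BEND2 or MN1-CXXC5, was inserted in the pcDNA5/FRT/TO vector with an HA epitope tag, selected with blasticidin and hygromycin and induced with doxycycline. MN1 is a transcriptional coregulator, BEND2 holds BEN domains that bind DNA, CXXC5 is a zinc finger protein, and the study's title ties the fusions to astroblastoma. The labels state neither whether control cells received doxycycline, nor whether a line was 1 clone or a pool, nor whether paired libraries represent separate cultures. The p-values thus measure only the spread among libraries, which may be technical.

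Libraries held 15.9 to 26.8 M counts (M for 1e6), and levels below are counts per 1e6 counts (CPM) after TMM scaling. The construct genes followed the labels. MN1 was at 3.81 to 5.39 CPM in CTRL and BEND2 cells. It was at 328 and 325 CPM in MN1, 291 in both MN1-BEND2 and 128 CPM in both MN1-CXXC5 libraries. The 3 lines with MN1 sequence thus differed in MN1 level, with MN1-CXXC5 cells the lowest. BEND2 was at 390 to 407 CPM in its 2 lines and at most 0.573 CPM elsewhere. CXXC5 was at 55.2 and 61.9 CPM in MN1-CXXC5 cells against 13.6 and 13.4 CPM in CTRL. The 8 markers of the kidney line summed to 859 to 1150 CPM in every library. Transcripts of salivary gland and squamous epithelium (10 markers listed, HTN3 at 0 in all libraries) summed to 82.7 CPM in CTRL replicate 1 and 75.2 CPM in MN1 replicate 1, against 0.516 to 2.85 CPM elsewhere, and 5 blood markers summed to 9.32 and 8.36 CPM in those libraries against 1.03 to 4.81 CPM. The 5 fibroblast markers summed to 7.76 to 22.4 CPM. Counts of called members are therefore also given with both libraries left out together, a choice made after seeing the data.

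The promoter sequences of the enzymes are shown first because the CEBP-ATF response element is the known link between the cytosolic enzymes and ATF4. A RefSeq entry (GRCh38.p14) was found for 33 of the 40 genes. In the 250 bases before the start, on both strands, the core TGATGCAA was found in AARS and IARS, and in 271 of all 35116 promoters of that length (0.772%). The looser form TGATGNAAN, which contains the core, was also found in the mitochondrial YARS2, and in 3.13% of all promoters. The sequences are written 5′ to 3′ on the strand of the gene with the element in capitals. In AARS and IARS it lies in reverse orientation, as TTGCATCA. For contrast, the fourth line shows TARS2, the called mitochondrial enzyme with the largest change against control among those that hold no element and have an entry.
AARS, minus strand, chr16:70289661-70289718: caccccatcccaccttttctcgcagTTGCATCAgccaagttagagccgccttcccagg
IARS, minus strand, chr9:92293698-92293721: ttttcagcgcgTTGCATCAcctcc
YARS2, minus strand, chr12:32756061-32756119: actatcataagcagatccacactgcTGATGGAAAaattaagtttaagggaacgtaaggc
TARS2, plus strand, chr1:150487304-150487363: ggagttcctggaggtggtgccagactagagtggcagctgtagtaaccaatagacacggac
The AARS element occupies bases 187 to 180 before the RefSeq start, that of IARS bases 13 to 6, and that of YARS2 bases 197 to 189. The IARS stretch lies inside the GENCODE v29 gene, which starts upstream of the RefSeq start, and the other 3 lie upstream of both starts. Both genes with the core, AARS and IARS, were called lower in MN1-BEND2 and in BEND2 cells, and AARS in the other lines as well. Without the core, 8 of the other 14 cytosolic or both-compartment genes with an entry were called lower in MN1-BEND2 cells, 10 in MN1-CXXC5, 8 in MN1 and 9 in BEND2 cells. Of all tested genes, 25.2%, 25.1%, 21.4% and 7.46% were called lower in these lines. Of the other motifs searched, the ETS and GABP core CCGGAAGT was found in CARS, HARS, NARS, WARS, EARS2, HARS2 and PARS2 (3.42% of all promoters), the E-box CACGTG in IARS, EARS2 and MARS2 (6.34%), and the NRF1 core GCATGCGC in MARS2 and YARS2 (2.63%). HARS and HARS2 start head to head. Their CCGGAAGT sites, from bases 84 and 9 before HARS and 83 and 8 before HARS2, may be the same sites. These matches are descriptions of letters in a window and name no bound factor.

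Per kilobase of exon, the highest control levels were those of cytosolic enzymes, led by TARS at 137, NARS at 127 and EPRS at 96.4 CPM per kb, which charge threonine, asparagine, and glutamate and proline. The mitochondrial isoleucine enzyme IARS2 followed at 84.5 CPM per kb, close to its cytosolic counterpart IARS at 82.9 CPM per kb. The other 15 mitochondrial genes lay between 0.0266 (VARS2) and 31.0 CPM per kb (RARS2), and the next lowest was SARS2 at 1.09 CPM per kb. The VARS2 value rests on 7 and 2 counts, and SARS2 shares 46.2% of its exon bases with AC011455.2 on the same strand. In sum the 19 cytosolic enzymes held 5397 and 5533 CPM in CTRL, 4695 and 4764 in BEND2, 4981 and 5082 in MN1, 4541 and 4568 in MN1-BEND2, and 4877 and 4993 CPM in MN1-CXXC5 cells. Every construct library thus lay below both controls in the cytosolic sum. The 16 mitochondrial enzymes summed to 918.5 and 919.7 CPM in CTRL, 924.3 and 927.4 in BEND2, 930.7 and 930.5 in MN1-BEND2, 990.6 and 1001 in MN1, and 1017 and 1026 CPM in MN1-CXXC5 cells. The MN1 and MN1-CXXC5 libraries lay above all others in this sum. IARS2 was the largest single part of this sum. The IARS2 mean was 351.8 CPM in CTRL, 329.8 in BEND2, 356.4 in MN1, 305.9 in MN1-BEND2 and 412.1 CPM in MN1-CXXC5 cells. It was thus close to control in MN1 cells, and the higher sum there lay mostly in other genes.

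Compared with control, 18 of the 40 members fell and 10 rose in MN1-BEND2 cells (edgeR quasi-likelihood F-test, Benjamini-Hochberg adjusted p under 0.05 over all tested genes), while 25.2% of all tested genes were called lower and 26.7% higher. In MN1-CXXC5 cells 14 fell and 9 rose, beside 25.1% lower and 19.2% higher of all genes. In MN1 cells 15 fell and 11 rose, beside 21.4% and 21.6%. The 11 include VARS2, at 7 and 2 counts in control, and 10 rose with VARS and VARS2 left out. In BEND2 cells 16 fell and 5 rose, beside 7.46% and 6.71%. The 4 comparisons share the control libraries and are given side by side, not as independent evidence of each other.

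Split by compartment, the falls lay mostly among the cytosolic enzymes. Of 19 cytosolic enzymes, 11 were called lower and 4 higher in MN1-BEND2 cells (median log2 fold change −0.23), 10 and 4 in MN1-CXXC5 (−0.25), 9 and 4 in MN1 (−0.07), and 12 and 1 in BEND2 cells (−0.22). Of 16 mitochondrial enzymes, 4 were called lower and 6 higher in MN1-BEND2 (median 0.16), 1 and 4 in MN1-CXXC5 (0.06), 2 and 7 in MN1 (0.15), and 1 and 4 in BEND2 cells (0.02). The 7 in MN1 cells include VARS2, at 7 and 2 control counts, whose call ended without any 1 library of that comparison. Over all tested genes the median was 0.01, −0.03, 0 and 0. The shares of these genes called lower were 25.2%, 25.1%, 21.4% and 7.46%, and called higher 26.7%, 19.2%, 21.6% and 6.71%. The share of cytosolic enzymes called lower lay above that of all genes in each line. The share of mitochondrial enzymes called lower was close to that of all genes in MN1-BEND2 (4 of 16) and BEND2 cells (1 of 16). It lay below that of all genes in MN1-CXXC5 (1 of 16) and MN1 cells (2 of 16). The 4 of 16 mitochondrial enzymes called higher in MN1-CXXC5 cells lay close to the share of all genes. With CTRL replicate 1 and MN1 replicate 1 left out, the cytosolic enzymes called lower numbered 11, 10, 7 and 12, and the mitochondrial enzymes called higher 7, 4, 4 and 2. Single libraries moved the mitochondrial values. In MN1-BEND2 cells the mitochondrial median was 0.01 without CTRL replicate 2 and 0.07 without MN1-BEND2 replicate 1, and the enzymes called lower numbered 2 without CTRL replicate 1, CTRL replicate 2 or MN1-BEND2 replicate 2. The median in MN1-CXXC5 cells was 0.01 without MN1-CXXC5 replicate 1. In MN1 cells 4 mitochondrial enzymes were called higher without MN1 replicate 2, and in BEND2 cells 2 without BEND2 replicate 2 or CTRL replicate 1 and 1 without CTRL replicate 2. When GC content and gene length were removed by offsets, the cytosolic medians were −0.22, −0.22, −0.09 and −0.22, and the mitochondrial medians 0.05, 0.10, 0.16 and 0.03.

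**Figure D1:**
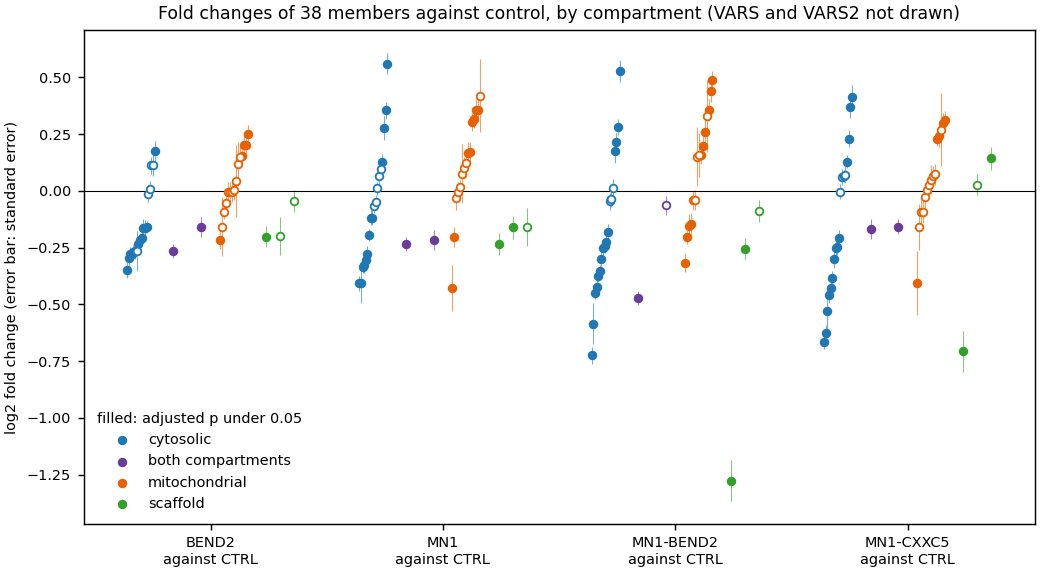
Log2 fold change of 38 members against control in each line, by compartment, with standard errors as bars and filled points for an adjusted p under 0.05 in edgeR's quasi-likelihood test. Most cytosolic enzymes lie below 0 in every comparison, the mitochondrial enzymes spread around and above 0, and AIMP2 in MN1-BEND2 cells is the lowest point at −1.28.

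NARS, the asparagine enzyme (chr18:57600656-57622213, GRCh38), had the largest fall of any synthetase in MN1-BEND2 cells. It stood at 507 and 536 CPM in CTRL, 406.5 and 413 in BEND2, 422 and 439 in MN1, 312 and 319 in MN1-BEND2, and 442 and 460 CPM in MN1-CXXC5 libraries. Every construct library lay below both controls, and the MN1-BEND2 pair was well below the rest. The log2 fold change was −0.72 (SE 0.037, edgeR adjusted p = 1.44e-08) in MN1-BEND2, −0.35 in BEND2, −0.28 in MN1 and −0.21 in MN1-CXXC5 cells, each called. Set against the other lines, MN1-BEND2 cells had less NARS than MN1 (−0.45), BEND2 (−0.38) and MN1-CXXC5 cells (−0.52, adjusted p = 2.07e-07).

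TARS, the threonine enzyme and the most abundant member per length in control cells (chr5:33440696-33469539), stood at 771 and 797 CPM in CTRL, 638.5 and 653 in BEND2, 621 and 623 in MN1, 573 and 577 in MN1-BEND2, and 598 and 606 CPM in MN1-CXXC5 libraries. No construct library reached the control range. It fell in all 4 lines, by 0.28 (BEND2), 0.33 (MN1), 0.38 (MN1-CXXC5) and 0.45 on the log2 scale (MN1-BEND2, SE 0.029, edgeR adjusted p = 1.01e-07).

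DARS, the aspartate enzyme of the complex, was at 221 and 225 CPM in CTRL, 188 and 183 in BEND2, 164 and 172 in MN1, 167 and 165 in MN1-BEND2, and 189 and 185 CPM in MN1-CXXC5 libraries. The MN1 and MN1-BEND2 libraries were the lowest, and the construct groups lay below control without overlap. Its log2 fold changes were −0.41 (SE 0.034) in MN1, −0.42 in MN1-BEND2, −0.27 in BEND2 and −0.25 in MN1-CXXC5 cells, each called by edgeR.

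AARS, the alanine enzyme whose promoter is shown above, stood at 307 and 321 CPM in CTRL, 257 and 260 in BEND2, 249 and 260 in MN1, 254 and 257 in MN1-BEND2, and 228 and 229 CPM in MN1-CXXC5 libraries. Its lowest libraries were those of MN1-CXXC5 cells, where it fell by 0.46 on the log2 scale (SE 0.034, edgeR adjusted p = 8.19e-07). The fall was 0.28 in BEND2 and 0.30 in both MN1 and MN1-BEND2 cells.

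SARS, the serine enzyme, took a different course in one fusion line. It was at 282.5 and 296 CPM in CTRL, 238.5 and 232 in BEND2, 226 and 236 in MN1, 212 and 219 in MN1-CXXC5, but 274 and 287 CPM in MN1-BEND2 libraries, which overlapped control. It fell in BEND2 (log2 fold change −0.30), MN1 (−0.33) and MN1-CXXC5 cells (−0.43, edgeR adjusted p = 4.24e-06), and in MN1-BEND2 cells its value of −0.05 did not pass the test, but with GC and length offsets it was called lower there (−0.14, adjusted p = 0.0101). MN1-BEND2 cells held more SARS than MN1 cells (0.28, SE 0.038) and BEND2 cells (0.25).

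CARS, the cysteine enzyme, was at 55.2 and 66.5 CPM in CTRL, 50.5 and 51.4 in BEND2, 41.5 and 50.6 in MN1, 39.5 and 41.8 in MN1-BEND2, and 42.3 and 42.4 CPM in MN1-CXXC5 libraries. No construct library reached the control range, and the MN1-BEND2 and MN1-CXXC5 libraries were the lowest together with MN1 replicate 1. It fell by 0.58 (SE 0.09) in MN1-BEND2, 0.53 in MN1-CXXC5 and 0.41 on the log2 scale in MN1 cells (edgeR adjusted p = 0.00322). The BEND2 value of −0.26 did not pass, but it did with the replicate number as a block (−0.25, adjusted p = 0.00284), with no filter (−0.25), in a fit of those 2 groups (−0.26) and without CTRL replicate 1 (−0.39). The MN1 value was −0.26 without CTRL replicate 2 and −0.27 without MN1 replicate 1.

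WARS, the tryptophan enzyme, was lower in each line, at log2 fold changes of −0.12 (MN1) to −0.25 (MN1-BEND2 and MN1-CXXC5), and its MN1 call ended without CTRL replicate 1 (−0.10) or MN1 replicate 1 (−0.10). FARSB, the beta subunit of the phenylalanine enzyme, was called lower in BEND2 (−0.16), MN1 (−0.12) and MN1-BEND2 cells (−0.23), and was at 0.00 in MN1-CXXC5 cells. With GC and length offsets the MN1-BEND2 value was −0.13. Its BEND2 call ended without BEND2 replicate 1 (−0.14) or CTRL replicate 2 (−0.16), and its MN1 call without CTRL replicate 2 (−0.11) or MN1 replicate 2 (−0.11). YARS, the tyrosine enzyme, was called lower in BEND2 cells (−0.21), with values of −0.05 to 0.06 in the other lines. With GC and length offsets it was also called lower in MN1-BEND2 (−0.22, edgeR adjusted p = 0.000511) and higher in MN1-CXXC5 cells (0.19). It was higher in MN1-BEND2 than in BEND2 cells (0.17, but 0.05 and not called with GC and length offsets). YARS was also called in MN1-CXXC5 cells with the replicate block (0.06) or without MN1-CXXC5 replicate 1 (0.11).

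HARS, the histidine enzyme (chr5:140673904-140691862), went the opposite way. It stood at 67.7 and 71.5 CPM in CTRL, 79.6 and 77.4 in BEND2, 102.7 and 103 in MN1, 100.3 and 100.9 in MN1-BEND2, and 85.5 and 94.8 CPM in MN1-CXXC5 libraries. Every construct library lay above both controls. It rose by 0.56 on the log2 scale in MN1 (SE 0.048, edgeR adjusted p = 2.65e-06), 0.53 in MN1-BEND2, 0.37 in MN1-CXXC5 and 0.17 in BEND2 cells. The BEND2 call ended when any 1 of its 4 libraries was left out (log2 fold changes of 0.14 to 0.22), at 0.15 and 0.19 without BEND2 replicates 1 and 2 and 0.14 and 0.22 without CTRL replicates 1 and 2. HARS2, the mitochondrial histidine enzyme that starts head to head with HARS and shares 437 exon bases with it on the opposite strand, had log2 fold changes of −0.04 to 0.06 that did not pass, but was called lower in MN1-BEND2 cells with GC and length offsets (−0.12).

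TARSL2, a cytosolic threonyl-tRNA synthetase paralogue of TARS, was at 31.5 and 32.9 CPM in CTRL, 34.6 and 35.4 in BEND2, 39.4 and 38.7 in MN1, 37.0 and 35.9 in MN1-BEND2, and 41.0 and 45.0 CPM in MN1-CXXC5 libraries. All construct libraries were above the control range, opposite to TARS. It rose in MN1-CXXC5 (0.41, SE 0.052, edgeR adjusted p = 5.05e-05), MN1 (0.28) and MN1-BEND2 cells (0.17), and the last call ended without CTRL replicate 1 (0.14) or MN1-BEND2 replicate 1 (0.16).

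GARS, the glycine enzyme that serves both compartments, was at 277 and 278 CPM in CTRL, 233 and 228 in BEND2, 239 and 233 in MN1, 197.5 and 202 in MN1-BEND2, and 245 and 253 CPM in MN1-CXXC5 libraries. Control was above every construct library, and MN1-BEND2 cells were the lowest. It fell by 0.47 on the log2 scale in MN1-BEND2 (SE 0.031, edgeR adjusted p = 1.29e-07), 0.27 in BEND2, 0.23 in MN1 and 0.16 in MN1-CXXC5 cells. KARS, the lysine enzyme, also encoded by 1 gene for both compartments, was called lower in MN1 (−0.22), MN1-CXXC5 (−0.17) and BEND2 cells (−0.16), and its −0.06 in MN1-BEND2 cells was called only with the replicate block. Its MN1-CXXC5 call ended without CTRL replicate 2 (−0.13) or MN1-CXXC5 replicate 1 (−0.14). Its BEND2 call ended without BEND2 replicate 1 (−0.14), BEND2 replicate 2 (−0.17) or CTRL replicate 2 (−0.12).

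Among mitochondrial enzymes, TARS2, for threonine (chr1:150487364-150507609), had the largest rise in MN1-BEND2 cells. It was at 62.2 and 59.1 CPM in CTRL, 68.1 and 66.5 in BEND2, 76.4 and 74.5 in MN1, 84.1 and 85.9 in MN1-BEND2, and 75.6 and 74.7 CPM in MN1-CXXC5 libraries. The control libraries were the lowest and the MN1-BEND2 libraries the highest, without overlap. The log2 fold change was 0.49 in MN1-BEND2 (SE 0.038, edgeR adjusted p = 5.15e-07), 0.32 in MN1, 0.31 in MN1-CXXC5 (0.47 with GC and length offsets) and 0.15 in BEND2 cells. The BEND2 call ended without BEND2 replicate 1 (0.13), BEND2 replicate 2 (0.17) or CTRL replicate 2 (0.12).

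AARS2, for alanine, was at 35.6 and 36.7 CPM in CTRL, 40.7 and 42.9 in BEND2, 47.8 and 44.9 in MN1, 48.2 and 49.9 in MN1-BEND2, but 34.7 and 33.2 CPM in MN1-CXXC5 libraries. It rose in MN1-BEND2 (0.44, SE 0.047, edgeR adjusted p = 9.05e-06), MN1 (0.36) and BEND2 cells (0.20), and its MN1-CXXC5 value of −0.09 did not pass the test. With GC and length offsets the value was 0.22 in MN1-CXXC5 and 0.19 in MN1-BEND2 cells. The BEND2 call ended without BEND2 replicate 2 (0.17), CTRL replicate 1 (0.18) or CTRL replicate 2 (0.23).

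LARS2, for leucine, was at 49.3 and 48.0 CPM in CTRL, 51.8 and 56.5 in BEND2, 61.6 and 62.9 in MN1, 60.9 and 63.5 in MN1-BEND2, and 58.2 and 56.6 CPM in MN1-CXXC5 libraries. All construct libraries were above control. It rose by 0.36 on the log2 scale in MN1-BEND2 (SE 0.047) and MN1 cells and by 0.24 in MN1-CXXC5 cells, and the BEND2 value of 0.15 did not pass, but did with the replicate block (edgeR adjusted p = 0.0236), with library totals (0.16), with no filter (0.16) or without BEND2 replicate 1 (0.22).

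CARS2, for cysteine, was at 60.6 and 58.4 CPM in CTRL, 70.0 and 71.8 in BEND2, 73.1 and 73.7 in MN1, 65.7 and 67.1 in MN1-BEND2, and 61.3 and 57.9 CPM in MN1-CXXC5 libraries. The last overlapped control and the others lay above it. It rose in MN1 (0.30), BEND2 (0.25, SE 0.040, edgeR adjusted p = 0.00221) and MN1-BEND2 cells (0.16), and the MN1-BEND2 call ended without CTRL replicate 2 (0.13) and with GC and length offsets (−0.01).

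RARS2, for arginine, was at 78.7 and 79.3 CPM in CTRL, 78 and 79.7 in BEND2, 88.2 and 89.9 in MN1, 75.4 and 78.2 in MN1-BEND2, and 92.6 and 101.5 CPM in MN1-CXXC5 libraries. It rose in MN1-CXXC5 (0.30, SE 0.044, edgeR adjusted p = 0.000195) and MN1 cells (0.17, not called without MN1 replicate 2, at 0.16). MARS2, for methionine, was at 24.3 and 23.9 CPM in CTRL, 27.0 and 28.5 in BEND2, 26.3 and 26.2 in MN1, 30.4 and 27.5 in MN1-BEND2, and 25.2 and 24.7 CPM in MN1-CXXC5 libraries. Its calls were in MN1-BEND2 (0.26, SE 0.059) and BEND2 cells (0.20). The MN1-BEND2 call ended with DESeq2 (adjusted p = 0.0769). The BEND2 call ended when any 1 library of the comparison was left out, at 0.25 and 0.17 without BEND2 replicates 1 and 2 and 0.21 and 0.19 without CTRL replicates 1 and 2.

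PARS2, the mitochondrial proline enzyme, was at 15.2 and 12.5 CPM in CTRL, 14.8 and 15.2 in BEND2, 10.9 and 9.64 in MN1, 15.5 and 15.3 in MN1-BEND2, and 12.1 and 12.6 CPM in MN1-CXXC5 libraries. The MN1 libraries lay below both controls and the MN1-BEND2 libraries just above them, while the other lines overlapped control. The log2 fold change was −0.43 in MN1 (SE 0.10, edgeR adjusted p = 0.00507), and 0.16 in MN1-BEND2 cells did not pass, except without CTRL replicate 1 (0.29). In MN1-CXXC5 cells it was called lower without CTRL replicate 2 (−0.30). The MN1 call ended without CTRL replicate 1 (−0.29) or MN1 replicate 2 (−0.34). MN1-BEND2 cells held more PARS2 than MN1 cells (0.59, adjusted p = 0.000478).

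The remaining mitochondrial enzymes are given by their log2 fold changes. WARS2, for tryptophan, fell in MN1-BEND2 (−0.32), BEND2 (−0.22) and MN1 cells (−0.21), and the BEND2 call ended without BEND2 replicate 2 (−0.19) or CTRL replicate 2 (−0.20). With DESeq2 its BEND2 and MN1 calls both ended. IARS2, for isoleucine, fell in MN1-BEND2 (−0.20) and rose in MN1-CXXC5 cells (0.23, edgeR adjusted p = 9.83e-05), and its BEND2 value of −0.09 was called only with the replicate block. EARS2, for glutamate, rose in MN1-BEND2 (0.20, but 0.09 and not called with GC and length offsets) and MN1 cells (0.17), and the MN1 call ended without CTRL replicate 1 (0.16) or MN1 replicate 2 (0.15). FARS2, for phenylalanine, was called only in MN1-CXXC5 cells (−0.41), not without CTRL replicate 1 (−0.26) or either MN1-CXXC5 library (−0.37 and −0.44). NARS2, for asparagine, and YARS2, for tyrosine, were called lower in MN1-BEND2 cells (both −0.15), and each call ended without CTRL replicate 1 (both −0.16), CTRL replicate 2 (−0.15 and −0.14) or MN1-BEND2 replicate 2 (−0.10 and −0.11). SARS2, for serine, with levels of 3.18 to 4.93 CPM, did not pass (0.04 to 0.42), except in MN1 cells with the replicate block (0.42) or without CTRL replicate 2 (0.57), and in MN1-CXXC5 cells with GC and length offsets (0.68).

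Each cytosolic enzyme was also set against the mitochondrial enzyme for the same amino acid, as the ratio of their levels per kilobase of exon in each library. Of 17 such pairs (VARS and VARS2 left out), which share some members, the ratio lay below both controls in both libraries for 12 pairs in MN1-BEND2, 10 in MN1-CXXC5, 10 in MN1 and 11 in BEND2 cells. It lay above control for 2, 4, 3 and 1 pairs, and the rest overlapped control. These counts rest on non-overlap of 2 libraries with 2 and not on a test. The shares of single genes called lower are therefore no baseline for them. No share of non-overlap was computed for other gene pairs, so how far these counts differ from it is not known. The median log2 change of the ratio was −0.38, −0.16, −0.15 and −0.19. For threonine, TARS over TARS2 was 8.83 and 9.62 in control, 6.68 and 7.01 in BEND2, 5.79 and 5.96 in MN1, 5.64 and 5.78 in MN1-CXXC5, and 4.86 and 4.79 in MN1-BEND2 libraries. The ratio of AARS to AARS2 was 8.23 and 8.34 in control and 5.04 and 4.91 in MN1-BEND2 libraries. The pair for histidine moved the other way, with HARS over HARS2 at 0.803 and 0.819 in control, 0.932 and 0.889 in BEND2, 1.16 and 1.24 in MN1, 1.20 and 1.21 in MN1-BEND2, and 0.949 and 1.06 in MN1-CXXC5 libraries.

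**Figure D2:**
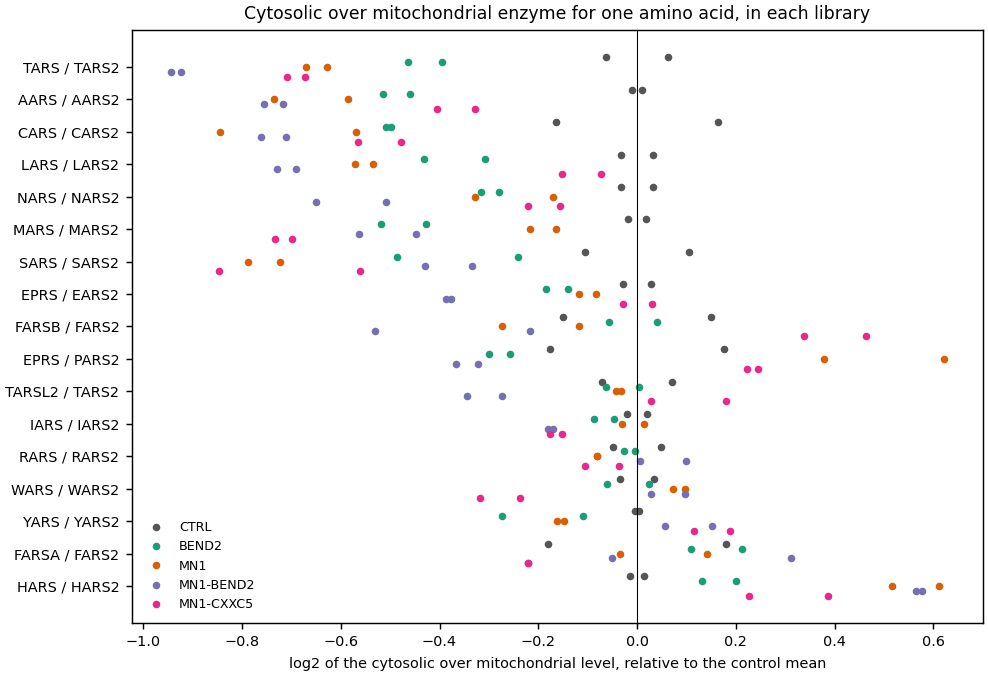
Log2 ratio of cytosolic to mitochondrial enzyme level per kilobase of exon for 17 pairs, in each of the 10 libraries, relative to the control mean of the pair. The ratios of TARS to TARS2, AARS to AARS2, CARS to CARS2 and LARS to LARS2 lie to the left of control in every construct library, and HARS over HARS2 lies to the right.

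Of the scaffold proteins, AIMP2, also known as p38 (chr7:6009245-6023834), had the largest fall of all 40 members in MN1-BEND2 cells. It was at 28.6 and 28.9 CPM in CTRL, 22.6 and 28.1 in BEND2, 25.9 and 25.6 in MN1, 17.4 and 17.8 in MN1-CXXC5, and 11.6 and 12.1 CPM in MN1-BEND2 libraries. Both fusion lines lay below every other library, and MN1-BEND2 cells below MN1-CXXC5 cells. The log2 fold change against control was −1.28 in MN1-BEND2 (SE 0.091, edgeR adjusted p = 2.53e-07) and −0.71 in the MN1-CXXC5 line (adjusted p = 5.16e-05). Its values of −0.16 in MN1 and −0.20 in BEND2 cells did not pass, except in a fit of those 2 groups for MN1 (−0.16) and, for BEND2, with the replicate block (adjusted p = 0.0469) or without BEND2 replicate 2 (−0.35). Against MN1 cells it was lower in both fusion lines (−1.12 in MN1-BEND2 and −0.55 in MN1-CXXC5). AIMP2 shares 532 exon bases, 28.9% of its own, with EIF2AK1 on the opposite strand, and without a stated strand setting reads there cannot be told apart. EIF2AK1, an eIF2 alpha kinase, was at −0.06 in MN1-BEND2, 0.28 in MN1 and 0.30 in MN1-CXXC5 cells against control.

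EEF1E1, also known as AIMP3, fell in MN1-BEND2 (−0.25), MN1 (−0.24) and BEND2 cells (−0.20) and was at 0.03 in MN1-CXXC5 cells. With GC and length offsets its MN1-BEND2 value was −0.05 and not called and its MN1 value −0.15, and the BEND2 call ended without CTRL replicate 1 (−0.17), BEND2 replicate 1 (−0.23) or BEND2 replicate 2 (−0.18). AIMP1, also known as p43, was lower in MN1 (−0.16) and higher in MN1-CXXC5 cells (0.14). The first call ended without CTRL replicate 2 (−0.12) or MN1 replicate 1 (−0.11), and the second without CTRL replicate 1 (0.10) or MN1-CXXC5 replicate 2 (0.08). In MN1-BEND2 cells AIMP1 was at −0.09, called only with the replicate block. Of the 8 enzymes that the complex holds (EPRS, IARS, LARS, QARS, MARS, KARS, RARS and DARS), 5 were called lower and 1 higher in MN1-BEND2, 4 and 2 in MN1-CXXC5, 3 and 1 in MN1, and 6 lower in BEND2 cells. Of all tested genes 25.2%, 25.1%, 21.4% and 7.46% were called lower in these lines, and 26.7%, 19.2%, 21.6% and 6.71% higher.

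Several complex enzymes separated the fusion lines from each other. Of the 40 members, 16 were lower and 13 higher in MN1-BEND2 than in MN1-CXXC5 cells, beside 27.5% lower and 31.1% higher of all tested genes. FARSA, the alpha subunit of the phenylalanine enzyme and not itself part of the complex (chr19:12922479-12934037), was at 132 and 138 CPM in CTRL, 134.5 and 137 in BEND2, 147 and 147 in MN1, 162 and 165 in MN1-BEND2, and 84.9 and 89.6 CPM in MN1-CXXC5 libraries. The MN1-CXXC5 libraries were far below all others and the MN1-BEND2 libraries above them. FARSA rose in MN1-BEND2 (0.28) and fell in the MN1-CXXC5 line (−0.63, SE 0.038, edgeR adjusted p = 1.71e-07), and the fusions differed by 0.91 (SE 0.037, adjusted p = 2.77e-09). In MN1 cells its 0.13 was not called without CTRL replicate 1 (0.10), MN1 replicate 1 (0.13) or MN1 replicate 2 (0.13). With GC and length offsets the MN1-CXXC5 value against control was −0.23, the MN1-BEND2 value 0.03, and that between the fusions 0.27. Its partner subunit FARSB differed in the opposite direction, at −0.22 between the fusions.

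QARS, the glutamine enzyme of the complex, was at 151 and 147 CPM in CTRL, 157 and 166 in BEND2, 188 and 193 in MN1, 169 and 177 in MN1-BEND2, and 119 and 123 CPM in MN1-CXXC5 libraries. The MN1-CXXC5 pair lay below control and the MN1 pair above all others. QARS rose in MN1 (0.36, SE 0.038, edgeR adjusted p = 1.69e-05) and MN1-BEND2 cells (0.22, but 0.05 and not called with GC and length offsets), fell in MN1-CXXC5 cells (−0.30), and at 0.11 did not pass in BEND2 cells, but did with the replicate block, with library totals (0.12) or with no filter (0.12). The MN1-CXXC5 value was −0.14 with GC and length offsets. MARS, the methionine enzyme of the complex, was at 358 and 360 CPM in CTRL, 299.5 and 297 in BEND2, 349 and 337 in MN1, 307 and 300 in MN1-BEND2, and 225 and 226.5 CPM in MN1-CXXC5 libraries. It fell by 0.67 on the log2 scale in MN1-CXXC5 (SE 0.031, edgeR adjusted p = 2.12e-08), 0.27 in BEND2 and 0.24 in MN1-BEND2 cells, and at −0.07 did not pass in MN1 cells, but did with the block, with library totals (−0.09) or with GC and length offsets (−0.09). With those offsets its MN1-BEND2 value was −0.39. MARS shares 355 exon bases with DDIT3 on the opposite strand, and DDIT3 fell in MN1-CXXC5 (−0.80), MN1 (−0.99) and MN1-BEND2 cells (−0.99). DDIT3 had 4639 counts in all libraries together against 61697 for MARS.

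LARS and IARS, the leucine and isoleucine enzymes of the complex, were lower in MN1-BEND2 than in MN1-CXXC5 cells. LARS was at 572 and 581 CPM in CTRL, 496.6 in both BEND2 libraries, 504.7 and 503 in MN1, 448 and 454 in MN1-BEND2, and 622 and 638 CPM in MN1-CXXC5 libraries. It fell in MN1-BEND2 (−0.35), BEND2 (−0.22) and MN1 cells (−0.19) and was called higher in MN1-CXXC5 cells (0.13, but 0.02 and not called with GC and length offsets), and the fusions differed by −0.48 (SE 0.028, edgeR adjusted p = 3.53e-08). IARS fell in MN1-BEND2 (−0.38) and BEND2 cells (−0.16), and the fusions differed by −0.44. Its 0.06 in MN1-CXXC5 cells passed only with the replicate block. EPRS, the glutamate and proline enzyme, fell in MN1-BEND2 (−0.18) and BEND2 cells (−0.16), where the call ended without BEND2 replicate 1 (−0.13) or CTRL replicate 2 (−0.12), and its 0.07 in MN1 and in MN1-CXXC5 cells passed with the block, and in MN1 cells also with GC and length offsets (0.11). RARS, the arginine enzyme, was called higher in MN1-CXXC5 cells (0.23), and its 0.10 in MN1 cells passed with the block, with GC and length offsets (0.16), or without CTRL replicate 1 (0.14). With those offsets it was also called in MN1-BEND2 cells (0.12).

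Against MN1 alone, 11 members were lower and 11 higher in MN1-CXXC5 cells, beside 25.5% lower and 23.3% higher of all genes. The lowest called values were FARSA at −0.76 (SE 0.038, edgeR adjusted p = 1.98e-08), QARS at −0.65 and MARS at −0.60, and the highest LARS at 0.32 and AIMP1 at 0.30. MN1-BEND2 against MN1 cells gave 15 lower and 5 higher members, beside 23.2% lower and 23.2% higher of all genes, led by AIMP2 (−1.12), NARS (−0.45) and IARS (−0.39) below and PARS2 (0.59) and SARS (0.28) above. MN1-BEND2 against BEND2 cells gave 10 lower and 9 higher members, beside 21.9% and 21.7%, led by AIMP2 (−1.08) and NARS (−0.38) below and HARS (0.36) and TARS2 (0.33) above. The CARS value of −0.32 in the last comparison was not called without BEND2 replicate 1 (−0.34), BEND2 replicate 2 (−0.31) or MN1-BEND2 replicate 1 (−0.28).

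GC content moved with these differences. The longest transcripts of the cytosolic enzymes had a median GC content of 46.8%, those of the mitochondrial enzymes 51.2%, and those of all tested genes 47.9%. Over 38 members (VARS and VARS2 left out), Pearson's r between GC content and the log2 fold change was 0.70 for MN1-BEND2 against MN1-CXXC5 cells and −0.70 for MN1-CXXC5 against MN1 cells, beside 0.50 and −0.37 over all tested genes. Against control it was 0.38 in MN1-BEND2, −0.34 in MN1-CXXC5, 0.35 in MN1 and 0.32 in BEND2 cells, beside 0.23, −0.33, 0.10 and 0.17 over all tested genes. These are descriptions across genes that share the same libraries, and genes are not independent replicates. With GC and length offsets, the mitochondrial enzymes called between the fusions changed from 7 higher and 3 lower in MN1-BEND2 cells to 1 higher and 7 lower, and AARS2 went from 0.53 to −0.03. NARS (−0.52 and −0.45) and AIMP2 (−0.57 and −0.75) were called lower in MN1-BEND2 than in MN1-CXXC5 cells without and with the offsets, in that order.

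**Figure D3:**
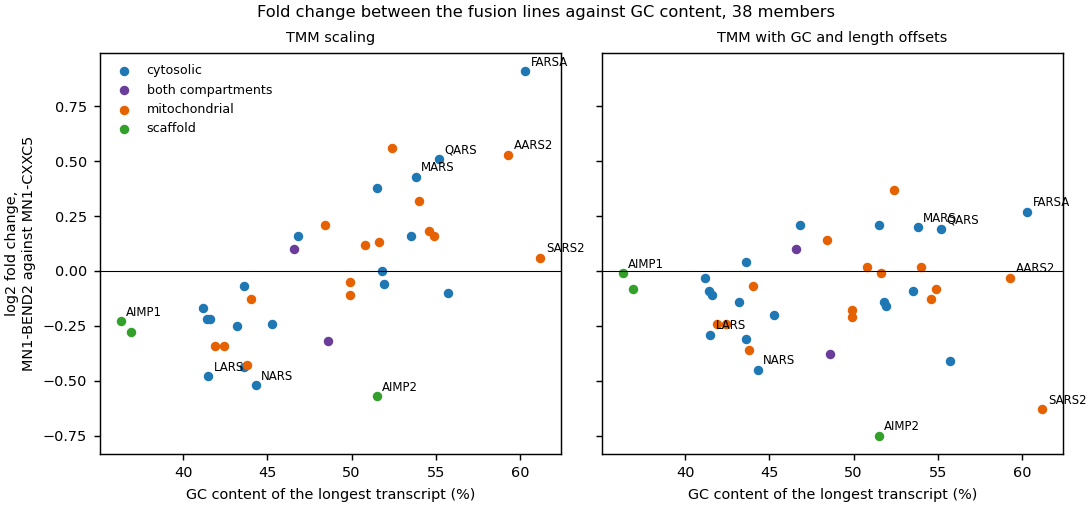
Log2 fold change of 38 members in MN1-BEND2 against MN1-CXXC5 cells, plotted against the GC content of the longest transcript in percent, with TMM scaling (left) and with GC and length offsets added (right). The upward trend on the left (Pearson's r 0.70) is flatter on the right, where FARSA is at 0.27, NARS at −0.45 and AIMP2 at −0.75.

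The valine enzymes VARS (chr6:31777518-31795953) and VARS2 (chr6:30908242-30926459) differed widely between replicates in most groups. VARS had 18 and 189 counts in control, 33 and 8 in BEND2, 16 and 163 in MN1, 290 and 13 in MN1-BEND2, and 28 and 6 counts in MN1-CXXC5 libraries. VARS2 had 7 and 2 counts in control, 210 and 3 in BEND2, 62 and 109 in MN1, 11 and 4 in MN1-BEND2, and 118 and 1 counts in MN1-CXXC5 libraries. Both VARS2 counts lay well above control in MN1 cells. VARS did not pass in the comparisons with control, except with no filter on low counts in MN1-BEND2 (0.70), MN1-CXXC5 (−2.23) and BEND2 cells (−2.31). The VARS2 log2 fold change of 4.41 in MN1 cells (SE 1.6, edgeR adjusted p = 0.0467) was called, but not without CTRL replicate 1 (5.67, adjusted p = 0.106), CTRL replicate 2 (3.65), MN1 replicate 1 (4.74) or MN1 replicate 2 (3.98). With the replicate block VARS2 was also called in MN1-CXXC5 (3.79) and BEND2 cells (4.05), as it was in both with no filter on low counts, and in BEND2 cells without BEND2 replicate 2 (5.14) and in MN1-CXXC5 cells without MN1-CXXC5 replicate 2. Without replicate 1 of the line its values were −1.79 in MN1-CXXC5 and −0.18 in BEND2 cells. In the stretch of chromosome 6 from VARS2 to VARS, 4 of 18 tested genes (22.2%: VARS, VARS2, BAG6 and CSNK2B) had replicates more than 2 log2 units apart in some group, against 9 of 852 tested genes elsewhere on that chromosome (1.06%) and 67 of 17257 on other chromosomes (0.388%). The stretch was bounded by VARS2 and VARS, so both are among the 4 by its choice. Its share is therefore no fair contrast with the other 2 shares. Without VARS and VARS2, the members called against control numbered 28 in MN1-BEND2, 23 in MN1-CXXC5, 25 in MN1 and 21 in BEND2 cells.

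**Figure D4:**
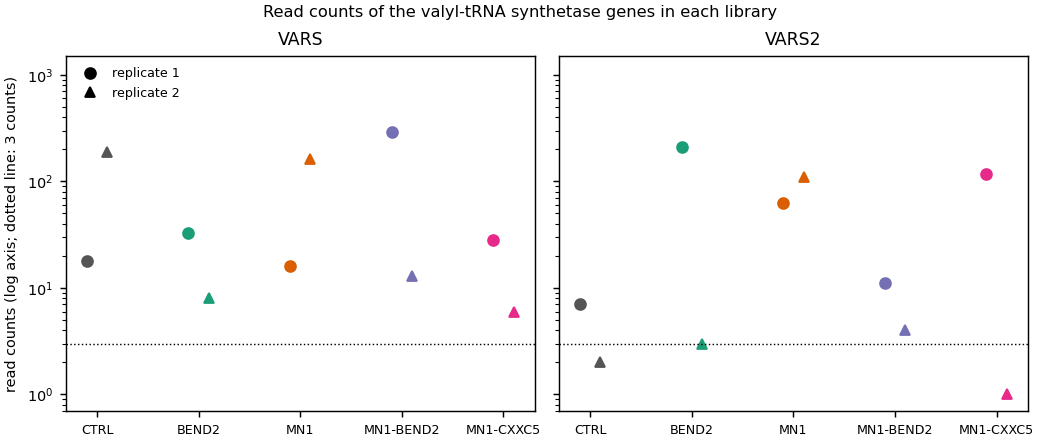
Read counts of VARS and VARS2 in each of the 10 libraries on a log axis, with circles for replicate 1, triangles for replicate 2 and a dotted line at 3 counts. Replicates of one group lie far apart, as with 290 and 13 counts of VARS in MN1-BEND2 cells.

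Genes of the pathways around tRNA charging were counted from lists chosen with earlier results of these data known. The counts stand beside 26.7% of all tested genes called higher and 25.2% lower in MN1-BEND2, 19.2% and 25.1% in MN1-CXXC5, 21.6% and 21.4% in MN1, and 6.71% and 7.46% in BEND2 cells. Of 25 genes of the ATF4 branch (ATF4, its targets and partners), 21 fell and 1 rose in MN1-BEND2, 23 fell in MN1-CXXC5, 22 fell and 2 rose in MN1, and 13 fell in BEND2 cells, with medians of −0.46, −0.74, −0.60 and −0.17. CEBPG, a dimer partner of ATF4, was at 876 and 860 CPM in CTRL, 626 and 607 in BEND2, 393 and 396 in MN1, 456 and 461 in MN1-BEND2, and 517 and 522 CPM in MN1-CXXC5 libraries. SLC7A11, the cystine transporter, fell by 1.56 on the log2 scale in MN1-BEND2 (SE 0.035, edgeR adjusted p = 2.58e-11), 1.01 in MN1-CXXC5, 0.62 in MN1 and 0.42 in BEND2 cells. PSAT1, of serine synthesis, fell by 0.82 in MN1-BEND2 cells, DDIT4, an inhibitor of mTORC1 signalling, by 2.34 in MN1-CXXC5 cells, and ATF3 by 1.36 in MN1 cells. The ATF4 transcript itself, whose protein is set largely by translation, was at 0.07 in MN1-BEND2, 0.04 in MN1-CXXC5 and 0.12 in BEND2 cells, and rose in MN1 cells (0.44, adjusted p = 2.41e-05).

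Of 14 genes of eIF2 alpha phosphorylation and its exchange factor, 4 rose and 3 fell in MN1-BEND2, 5 and 3 in MN1-CXXC5, 4 and 3 in MN1, and 2 and 4 in BEND2 cells. Of all tested genes, 26.7%, 19.2%, 21.6% and 6.71% were called higher and 25.2%, 25.1%, 21.4% and 7.46% lower in these lines. IMPACT, an inhibitor of the kinase GCN2, fell in MN1-BEND2 (−0.67, edgeR adjusted p = 1.04e-08), MN1 (−0.55) and BEND2 cells (−0.32), and PPP1R15A, which brings a phosphatase to eIF2 alpha, in all 4 lines (−0.79 in MN1-BEND2, −0.64 in MN1-CXXC5, −1.20 in MN1 and −0.38 in BEND2 cells). Among 28 tested genes of tRNA synthesis, processing and export, 12 rose and 7 fell in MN1-BEND2, 8 and 9 in MN1-CXXC5, 12 and 7 in MN1, and 7 and 5 in BEND2 cells. XPOT, the exporter of mature tRNA from the nucleus, was at 740 and 730 CPM in CTRL, 604 and 619 in BEND2, 599 and 590 in MN1, 634 and 639 in MN1-CXXC5, and 366 and 374 CPM in MN1-BEND2 libraries, a log2 fold change of −0.99 there (SE 0.029, edgeR adjusted p = 1.84e-10). ELAC2, which trims the 3′ end of tRNA precursors, rose in MN1-BEND2 (0.69), MN1 (0.64), MN1-CXXC5 (0.50) and BEND2 cells (0.35).

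Of 12 tested helpers of charging and delivery, 1 rose and 3 fell in MN1-BEND2, 2 and 2 in MN1-CXXC5, 2 and 3 in MN1, and 2 fell in BEND2 cells. The shares of all tested genes were 26.7%, 19.2%, 21.6% and 6.71% higher and 25.2%, 25.1%, 21.4% and 7.46% lower. SEPSECS, which makes selenocysteine on its tRNA, fell in every line (−0.66 in MN1-BEND2, −0.48 in MN1-CXXC5, −0.94 in MN1 and −0.44 in BEND2 cells). EEF1A1, the factor that carries charged tRNA to the ribosome, fell by 0.28 on the log2 scale in MN1-BEND2 cells and rose in MN1 cells (0.11). Of 16 mitochondrial translation and transcription factors, 5 rose and 7 fell in MN1-BEND2, 5 and 1 in MN1-CXXC5, 5 and 7 in MN1, and 4 and 2 in BEND2 cells. TUFM, which delivers charged tRNA to the mitochondrial ribosome, rose in MN1-BEND2 (0.59, edgeR adjusted p = 1.84e-08), MN1 (0.47) and BEND2 cells (0.20). SLIRP, which stabilizes mitochondrial mRNA, rose in all 4 lines (0.72 in MN1-BEND2, 0.29 in MN1-CXXC5, 0.68 in MN1 and 0.38 in BEND2 cells). TFAM, which packages mitochondrial DNA, fell in MN1-BEND2 (−0.52) and MN1 cells (−0.17).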

How the data were processed

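RNA was measured by bulk sequencing of total RNA. The deposited values are raw read counts, 1 whole number per gene and library, per the file headers. The submitters' processing notes name featureCounts 2.0.0, SAMtools 1.0.1, HISAT2 and GRCh38 (hg38). How reads were counted, including strand and annotation, is not given in the sources used here, so reads of overlapping genes cannot be told apart. Lines sharing an identifier (45 identifiers) were summed, 0 columns were unmatched, and GENCODE v29 gave positions and exon lengths. No library was dropped or imputed in the main analysis. Replicates differed by more than counting noise in every group (chi-square divided by its degrees of freedom, 2.29 to 3.88).

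All 10 libraries entered one edgeR 4.0.16 fit (R 4.3.3, TMM, filterByExpr, quasi-likelihood F-test, Benjamini-Hochberg over 18127 genes, 5 residual degrees of freedom). The code was also run on counts drawn with the spread of this fit and independent libraries. That run cannot show how the fit handles deviations that real libraries share. Alternatives were library totals, no filter, DESeq2 1.42.0, 2 groups only, each library left out, a replicate block and spline offsets for GC content and length. The reported fit holds no term for the replicate number, so its p-values ignore any pairing by it. Same-numbered libraries deviated together in all 10 pairs of groups (correlations 0.185 to 0.364). This is a check of the data and no label states a shared batch. The block is therefore named beside each result against control whose call it changes. Values in every library are given for the 4 called members with the largest rise and the 4 with the largest fall in each comparison with control, plus VARS; LARS and the context genes shown by library were added after values were seen. From each context list at most the 3 called genes with the smallest adjusted p in a comparison were named, plus ATF4, DDIT3, EIF2AK1 and further values of genes so chosen. Members and lists were chosen with earlier results of these data known. The depth of 15.9 to 26.8 M counts (M for 1e6) limits SARS2, FARS2 and PARS2 most. The counts of VARS and VARS2 did not follow depth. VARS had 290 counts in the MN1-BEND2 library of 18.6 M and 13 in that of 24.5 M. On the same strand, SARS2 shares 46.2% of its exon bases with AC011455.2. VARS2 shares 22.0% with GTF2H4, which had 0 counts in all libraries together. The effect of these overlaps on the counts was not tested. Figures were drawn with matplotlib 3.10.9.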

Additional observations from a re-analysis of the deposited data

How the results depend on the processing

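Of 188 calls of members in the 8 comparisons, 117 stood under every alternative and 71 did not under at least 1. The number of members called stayed within 1.5 times the number reported under each alternative, except for BEND2 against control without CTRL replicate 2, where it was 13 in place of 21. Leaving out 1 library gave 13 to 18 called members for BEND2 against control, 20 to 24 for MN1, 25 to 27 for MN1-BEND2 and 21 to 23 for MN1-CXXC5 against control. Leaving out both libraries with salivary transcripts gave 17, 20, 27 and 21. DESeq2 gave 14, 18, 23 and 21. In all 8 comparisons DESeq2 ended 41 calls, most of them not named by gene above. The replicate block gave 27, 30, 30 and 27, gained 36 calls over all of them and lost 0 calls; it changed no call against control other than those named above. Among fold changes called in the reported test or under the alternative, 15 turned sign, all with GC and length offsets: CARS2 (−0.01) in MN1-BEND2 and AARS2 (0.22) in MN1-CXXC5 cells against control; AARS (−0.12), YARS (−0.13) and FARSA (−0.03) in MN1-BEND2 against MN1; QARS (−0.01) in MN1-BEND2 against BEND2; EPRS (−0.11), TARS2 (0.17) and IARS (−0.08) in MN1-CXXC5 against MN1; and AARS (−0.09), EARS2 (−0.01), SARS2 (−0.63), AARS2 (−0.03), CARS2 (−0.08) and TARS2 (−0.13) between the fusions. Fold changes called in neither also turned sign, such as VARS in MN1-BEND2 cells (0.72, and −3.12 without MN1-BEND2 replicate 1). The cause was not tested.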
